A study of Homo sapiens with 8 samples.

Results

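Readthrough genes, whose symbols join the names of 2 neighbouring genes with a hyphen, were followed across 8 RNA-seq libraries of human Huh7 cells. A symbol was taken as a readthrough gene when, at some hyphen, the text before it and the text after it were both symbols of other rows in the same tables. By this rule 84 of 17076 genes were readthrough genes, and the other 657 of the 741 symbols with a hyphen were not. Each readthrough gene was read beside its parents, the row named first and the row named second. The 84 readthrough genes had 167 different parents, because BLOC1S5 belongs to 2 of them.

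The Huh7 line, derived from a hepatocellular carcinoma, was studied with less and with more UPF1. In the depletion experiment siControl cells received a scrambled siRNA and siUPF1 cells an siRNA against UPF1. In the overexpression experiment MYC cells received a control MYC vector and MYC-UPF1 cells a vector for MYC-tagged UPF1. Each of the 4 groups had 2 libraries, made with a stranded mRNA kit, and the labels do not say that they came from separate cultures. The study's methods speak of independent experiments in general, not of these libraries. P-values are therefore read here as measuring only the spread between libraries. They and the SE come from limma fits, which draw each gene's variance toward that of genes of like level. For a gene that varies more than those, both are smaller than its own libraries alone would give. Expression was deposited as FPKM, fragments scaled to the length of a gene's exons and to the mapped fragments of the library, which allows levels of different genes to be set side by side. The read depth of each library is not given in the sources used here, and no counting interval could be made. UPF1 itself stood at 44.5 and 47.4 FPKM in siControl, 20.7 and 21.9 in siUPF1, 45.1 and 57.4 in MYC, and 2835 and 2484 in MYC-UPF1. The hepatocyte markers AFP, ALB, APOA1, APOA2, APOB, SERPINA1, TTR and FGB were expressed in every library, from 126 FPKM for TTR to 12505 for AFP.

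A readthrough transcript arises when RNA polymerase passes the cleavage and polyadenylation site of one gene and continues into the next gene on the same strand, and splicing then joins exons of both. Many such transcripts change the reading frame at the joint and carry a premature stop codon. UPF1 is the helicase at the core of nonsense-mediated mRNA decay (NMD), which degrades transcripts of that kind. Because a readthrough transcript is built from the exons of its parents, most of its reads could also come from a parent.

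The joints between parents show what sets these transcripts apart, and they are given here for the genes whose values carry the results below. The sequences are from GRCh37, the build called hg19, with exons from GENCODE release 44 lifted to that build. Each has the last 15 bases of the exon before the joint in lower case and the first 15 bases of the exon after it in capitals, read 5′ to 3′ on the strand of the gene. Every intron removed at these joints began with GT and ended with AG.
CHKB-CPT1B: tgttcctgagtttgaGTGCCGACCAACCCC
UBE2F-SCLY, UBE2F to an exon of neither parent: catttgcgggacaagGTGAGAATTCTATTT
UBE2F-SCLY, that exon to SCLY: ccgcggaccctcgcgGAAAGTTTATATGGA
COMMD3-BMI1, first exon of COMMD3: acgaggccgtgttagGATTTTTTATCAAGC
COMMD3-BMI1, exon 7: atggaacaattacagGATTTTTTATCAAGC
ABHD14A-ACY1: cccttgaccttccagCTCACCACGCGCAGC
RAB4B-EGLN2: gctctgtggagccagCCACCCTGAAGGGTC
CRYZL2P-SEC16B: ttcaagctggacgagGAAGATAAAATAACT
BLOC1S5-TXNDC5: caggaacgaaaaaagGTGTGGACACTGCCA

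CHKB-CPT1B (chr22:51007298-51021394, minus strand) joined exon 8 of a 27-exon transcript to exon 9 across an intron of 1101 bases. In UBE2F-SCLY (chr2:238875656-239008053, plus strand) no annotated transcript joined the parents directly. Its 19-exon transcript passed through an exon of its own at chr2:238965799-238965891, which lies between the parents. In COMMD3-BMI1 (chr10:22605317-22618471, plus strand) each of 4 annotated direct joints entered the same BMI1 exon at position 22615360. The 2 sequences above thus share their capitals and differ in the COMMD3 exon before them. The joints not shown were listed under protein coding transcripts. Of the 6 annotated transcripts of this gene, 3 were protein coding and 1 was tagged for NMD. ABHD14A-ACY1 (chr3:52008722-52023199, plus strand) had 29 annotated transcripts, 23 of them tagged for NMD. Of its 6 annotated direct joints, the one shown links exons 3 and 4 of a 17-exon transcript. Its other joints were listed under transcripts that were protein coding, tagged for NMD or typed with a retained intron. Each joint is listed under a single transcript, and other transcripts of a gene may share it. RAB4B-EGLN2 (chr19:41284147-41314323, plus strand) joined exons 7 and 8 of 12. CRYZL2P-SEC16B (chr1:177897923-178007142, minus strand) joined exons 4 and 5 of 27 at the direct joint shown. Its 31-exon transcript passed instead from CRYZL2P through exons of neither parent to SEC16B. Of the exon bases of CRYZL2P-SEC16B 37.5% lay in neither parent. BLOC1S5-TXNDC5 (chr6:7881755-8064597, minus strand) joined exons 4 and 5 of 13 over an intron of 121643 bases. The transcripts with the joints shown for UBE2F-SCLY, ABHD14A-ACY1, RAB4B-EGLN2 and BLOC1S5-TXNDC5, and the first one of COMMD3-BMI1, were tagged for NMD in GENCODE. Those shown for CHKB-CPT1B and CRYZL2P-SEC16B were typed there as transcripts with a retained intron, and the second of COMMD3-BMI1 had no defined coding sequence.

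In the GENCODE annotation 65 of the 84 readthrough genes were found by symbol, and both parents were found for 82. The parents lay on the same chromosome and strand in 80 of these pairs, with the first-named parent upstream in 78. They overlapped or touched in 15 pairs and stood apart in 65, by a median of 7073 bases and a range of 139 to 108285. The remaining pairs, BMS1P2-AGAP9 and PARGP1-AGAP4, had parents on opposite strands of chromosome 10. Both are from duplicated gene families whose copies share sequence, which leaves their read assignment uncertain. By GENCODE exons, the readthrough genes had little sequence of their own. The FPKM were made with the NCBI annotation, whose gene models may differ in exons, joints and transcript types. Over the 65 found, a median of 4.42% of exon bases lay outside the exons of both parents, 24 had under 1% of such bases and only 4 had over 50%. COMMD3-BMI1, BLOC1S5-TXNDC5, RAB4B-EGLN2 and NME1-NME2 had none. At least 1 transcript was tagged for NMD in 35 of the 65. RefSeq named 83 of the 84, of which 42 were protein coding, 34 lncRNA and 7 transcribed pseudogenes.

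Readthrough genes were weakly expressed, and most lay below both parents. Their mean FPKM over the 8 libraries had a median of 1.14 and ran from 0.0344 for LY75-CD302 to 10.3 for NME1-NME2. The same median was 5.90 for the parents and 3.98 for all genes. By mean FPKM 55 readthrough genes lay below both parents, 20 between them and 9 above both. In all 8 libraries at once, 44 lay below both parents and 6 above both. As a share of the summed FPKM of the 3 rows, the readthrough gene held a median of 4.66%, with 20 genes under 1% and 7 over 50%.

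**Figure D1:**
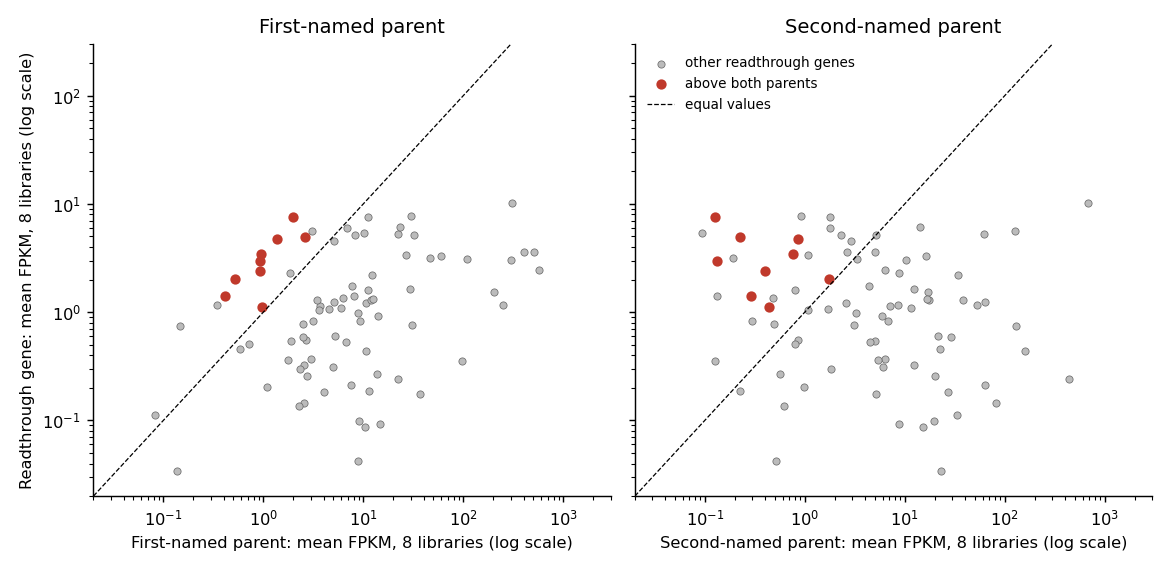
Mean FPKM over the 8 libraries of each of the 84 readthrough genes (vertical axis, log scale) against its first-named parent (left) and second-named parent (right) on log horizontal axes. Each point is 1 readthrough gene, the dashed line marks equal values, and red points are the 9 readthrough genes above both parents. Most points lie to the right of the line, on the side where the parent is higher.

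The 5 highest readthrough genes differed in how they compared with their parents. NME1-NME2, between a pair of nucleoside diphosphate kinase genes, ran from 8.88 to 11.8 FPKM with a median of 10.2, against means of 305 for NME1 and 678 for NME2. PPT2-EGFL8 ran from 5.53 to 10.4 FPKM, between the thioesterase gene PPT2 at a mean of 29.8 and EGFL8 at 0.916. BOLA2-SMG1P6 ran from 6.87 to 8.75, with BOLA2, an iron-sulfur protein gene, at a mean of 11.0 and the pseudogene SMG1P6 at 1.80. TEN1-CDK3 was the reverse of the usual order. Its FPKM ran from 6.89 to 8.63, above TEN1, a subunit of a telomere-binding complex, at a mean of 1.96 and above the kinase gene CDK3 at 0.128. It held 78.5% of the summed FPKM of the 3 rows, the highest share of all. HNRNPUL2-BSCL2 ran from 4.83 to 7.23 FPKM, below HNRNPUL2 at 23.5 and the seipin gene BSCL2 at 14.3. None of the 5 passed an unadjusted p of 0.05 in either experiment. In the depletion experiment TEN1 itself rose, from 1.39 and 0.946 FPKM in siControl to 3.48 and 4.46 in siUPF1, while TEN1-CDK3 had 6.89 and 7.82 in siControl and 7.19 and 8.63 in siUPF1. The log2 fold changes were 1.20 for TEN1 and 0.09 for TEN1-CDK3, and the difference between them was not tested.

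The 2 libraries of a group differed more for readthrough genes than for other genes in the same broad range of level, and the parents lay between. Among genes with a mean between 0.5 and 10 FPKM there were 59 readthrough genes and 8080 other genes, 85 parents among the latter. On the log2(FPKM + 1) scale the median absolute difference between the 2 libraries was 0.219 for readthrough genes and 0.0871 for other genes in siControl. It was 0.257 and 0.135 in siUPF1, 0.227 and 0.138 in MYC, and 0.286 and 0.125 in MYC-UPF1. For the parents in this range it was 0.121 in siControl, 0.187 in siUPF1, 0.171 in MYC and 0.192 in MYC-UPF1. Each parent value was above that of the other genes and below that of the readthrough genes. A difference of over 1 on this scale was seen in 5, 7, 3 and 6 of the 59 readthrough genes in siControl, siUPF1, MYC and MYC-UPF1. That is 8.47%, 11.9%, 5.08% and 10.2% of them, against 0.322%, 0.322%, 0.0495% and 0.099% of the other genes. The highest library exceeded the lowest by over 10 times in 17 of the 84 readthrough genes and by under 2 times in 23. The most even were SMURF2P1-LRRC37BP1, with a ratio of 1.18, and TEN1-CDK3, with 1.25.

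**Figure D2:**
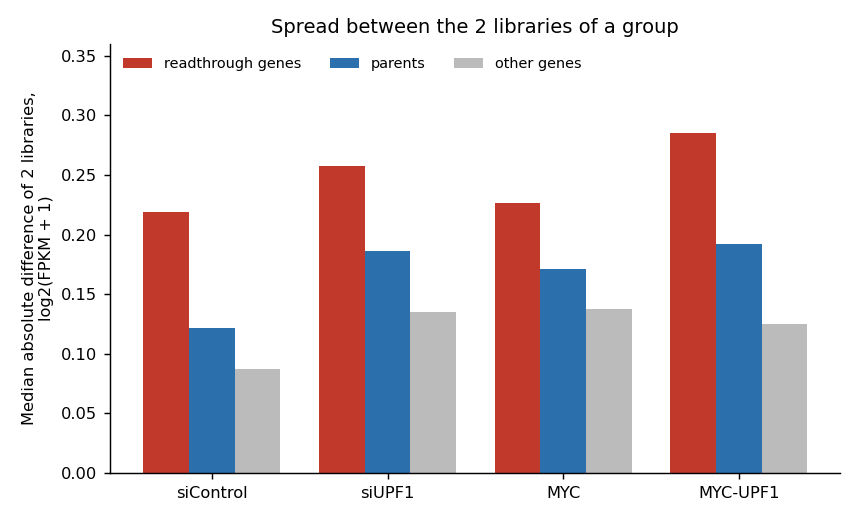
Median absolute difference between the 2 libraries of each group on the log2(FPKM + 1) scale, for genes with a mean of 0.5 to 10 FPKM. Red bars are the 59 readthrough genes, blue bars their parents in that range and grey bars all other genes, and in each of the 4 groups the red bar is the tallest, at 0.219 to 0.286.

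The least even readthrough genes, chosen after their values were seen, moved between libraries of the same group. BLOC1S5-TXNDC5 joins a subunit gene of a lysosome-related organelle complex to TXNDC5, an oxidoreductase of the endoplasmic reticulum. It had 18.0 and 0.0421 FPKM in siControl, 13.8 and 0.340 in siUPF1, 0.0240 and 0.0247 in MYC, and 12.6 and 0.0339 in MYC-UPF1. Thus 1 library in each of 3 groups was high and the other 5 were near 0, a ratio of 751 between the highest and the lowest. Both MYC-UPF1 libraries lay above both MYC libraries, and the log2 fold change of 1.87 (SE 0.862, limma adjusted p = 1.00) did not pass. TXNDC5, at 104 and 132, 113 and 124, 138 and 146, and 126 and 138 FPKM in the same order, was lower in each library where the readthrough gene was high than in the other library of that group. FAM47E-STBD1 ran from 0.0125 to 4.48 FPKM, both in MYC-UPF1, where STBD1, a glycogen-binding protein gene, had 8.74 and 3.77. RPL17-C18orf32, which begins with a ribosomal protein gene, had 8.46 and 1.72 FPKM in siControl and 0.298 and 3.04 in siUPF1, so that the groups overlapped. Its log2 fold change of -1.15 (SE 0.658, limma adjusted p = 0.344) was the largest fall among the readthrough genes in the depletion experiment and did not pass the test.

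Over the 60 readthrough genes with a mean of at least 0.5 FPKM, the difference between the 2 libraries of a group tended to run against that of the second-named parent. Across genes, which are not independent replicates, Pearson's r was -0.50 in siControl, -0.25 in siUPF1, -0.14 in MYC and -0.46 in MYC-UPF1. For the first-named parent the values were -0.23, -0.05, -0.18 and -0.30. All these points share the 2 libraries of their group and any reads passed between overlapping rows. The summed FPKM of the 3 rows was more even than the readthrough gene alone, with a median absolute log2 difference between libraries of 0.0902 in siControl, 0.134 in siUPF1, 0.10 in MYC and 0.0976 in MYC-UPF1. The readthrough gene held a median of 4.66% of this sum, which for most genes thus follows mainly the parents. FPKM of rows of different length do not add up to an exact level for the locus. How the reads were divided among the 3 rows was not tested.

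UPF1 depletion was tested with limma on log2(FPKM + 1) over all genes with a mean of at least 0.5 FPKM in the 4 libraries, and a gene was said to have risen or fallen at an unadjusted p under 0.05. Of the 84 readthrough genes 59 passed this minimum, some only through the group in which they were high. Of these 10 rose and 6 fell, beside 16% of all 13535 genes that rose and 5.51% that fell. Their share of rises, 16.9%, was near that background, and their share of falls was 10.2%. The split between rises and falls depended on scaling: it was 6 to 9 after quantile normalization, 6 to 7 after centring each library on its median, and 4 to 6 of 48 genes after removal of the trends with GC content and length. The median log2 fold change was 0.04 over the readthrough genes and 0.06 over all genes. The median absolute log2 fold change was 0.247 and 0.145. After adjustment by the Benjamini-Hochberg method 1 readthrough gene passed 0.05, beside 0.0369% of all genes. With 2 libraries in each group the smallest two-sided p of an exact permutation test is 0.333, above 0.05. Both siUPF1 libraries lay above both siControl libraries in 12 of the 59 and below them in 9, beside 37.5% and 18.5% of all genes. In a bulk measurement, fewer cells with a transcript and less of it per cell cannot be told apart.

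CHKB-CPT1B had the largest change of all genes tested in the depletion experiment. It joins CHKB, a choline kinase gene of phosphatidylcholine synthesis, to CPT1B, a carnitine palmitoyltransferase gene of mitochondrial fatty acid uptake. It had 2.17 and 2.86 FPKM in siControl and 9.31 and 8.42 in siUPF1, groups far apart. The means were 2.51 ± 0.490 and 8.87 ± 0.633 (SD, n = 2), a log2 fold change of 1.50 (SE 0.123, limma adjusted p = 0.0308). Both parents were lower in siUPF1. CHKB had 10.4 and 11.4 FPKM in siControl and 4.30 and 8.18 in siUPF1, a fall of log2 -0.77 (SE 0.233, limma adjusted p = 0.147). CPT1B had 6.39 and 6.25, and then 2.13 and 5.70, with a log2 fold change of -0.68 that did not pass (limma adjusted p = 0.256). The readthrough gene thus held 11.4% and 13.9% of the summed FPKM of the locus in siControl and 59.2% and 37.8% in siUPF1. The sum was 18.9 and 20.5 in siControl and 15.7 and 22.3 in siUPF1, on both sides of the controls. Its mean difference was -0.07 on the log2 scale. In the overexpression experiment the same 3 rows moved between libraries of 1 group. CHKB-CPT1B had 6.40 and 2.72 FPKM in MYC and 2.56 and 6.47 in MYC-UPF1, where CHKB had 4.39 and 12.0 and then 10.2 and 4.81. The readthrough gene was high where CHKB was low in each case. The log2 fold change there was -0.03 (SE 0.356, limma adjusted p = 1.00), with overlapping groups. The rise after depletion kept its unadjusted call under every alternative, at 1.3 to 1.79. Its adjusted p was 0.193 without the FPKM minimum, 0.0579 after quantile normalization, 0.0616 after median centring, 0.0534 with all 8 libraries in 1 fit and 0.0737 with the replicate number as a block.

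CRYZL2P-SEC16B, which runs from a pseudogene into SEC16B, a scaffold of endoplasmic reticulum exit sites, also rose on depletion. Its FPKM was 0.188 and 0.435 in siControl and 1.59 and 1.19 in siUPF1, without overlap. It thus passed the minimum of 0.5 FPKM only through siUPF1. The log2 fold change was 0.87 (SE 0.138, limma adjusted p = 0.0645). SEC16B fell from 2.39 and 2.23 to 0.783 and 1.08 FPKM, a log2 fold change of -0.78 (SE 0.112, limma adjusted p = 0.0584). CRYZL2P was at 4.16 and 3.72 and then 4.39 and 3.58 FPKM, with a log2 fold change of 0.01. In the overexpression experiment CRYZL2P-SEC16B had 1.21 and 1.45 FPKM in MYC and 0.905 and 1.40 in MYC-UPF1. All these libraries lay above both siControl libraries, and SEC16B, from 0.202 to 0.929 FPKM, lay below them. The experiments had different controls, and this difference was not tested.

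BLOC1S1-RDH5 and ERV3-1-ZNF117 rose beside parents that were level or rose too. BLOC1S1-RDH5, which joins a lysosome-related organelle complex subunit gene to a retinol dehydrogenase gene, had 4.19 and 5.05 FPKM in siControl and 6.65 and 7.84 in siUPF1. The log2 fold change was 0.55 (SE 0.120, limma adjusted p = 0.0887), with 0.17 for BLOC1S1 and 0.05 for RDH5, neither of which passed. ERV3-1-ZNF117 runs from an endogenous retroviral gene into a zinc finger gene. It had 1.31 and 1.16 FPKM in siControl and 2.97 and 2.03 in siUPF1, a log2 fold change of 0.64 (SE 0.142, limma adjusted p = 0.0928). ERV3-1 rose by 0.56, from 6.44 and 5.79 to 9.43 and 9.47 FPKM, and ZNF117 had a log2 fold change of 0.03. RTEL1-TNFRSF6B, from a telomere helicase gene to a decoy receptor gene, had 0.709 and 1.01 FPKM in siControl and 1.64 and 1.57 in siUPF1. The change on the log2 scale was 0.49 (SE 0.114, limma adjusted p = 0.0972), with 0.10 for RTEL1 and 0.01 for TNFRSF6B. It fell to 0.22 and no longer passed once the trends with GC content and length were removed.

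The other 5 rises were smaller or rested on single libraries. ATP5MF-PTCD1, from an ATP synthase subunit gene to a gene for a mitochondrial RNA-binding protein, had 4.15 and 0.998 FPKM in siControl and 5.29 and 5.12 in siUPF1. The value of 0.95 became 0.27 and did not pass without siControl replicate 2, and 1.64 without siControl replicate 1. SYS1-DBNDD2, which begins with a Golgi trafficking gene, went from 0.535 and 1.54 to 2.07 and 1.81 FPKM. Its value was 0.57, or 0.21 and not called without siControl replicate 1 and 0.94 without siControl replicate 2. DUS4L-BCAP29, which ends in a gene for a protein of the endoplasmic reticulum, went from 1.62 and 2.37 to 4.35 and 2.51 FPKM while both of its parents fell, by -0.45 and -0.47 on the log2 scale. Its own value of 0.54 became 0.24 without siUPF1 replicate 1, 0.36 without siControl replicate 1, both not called, and 0.85 without siUPF1 replicate 2. CENPS-CORT, which begins with a centromere protein gene, rose by 0.38 with CENPS at 0.29, and the call was lost without siControl replicate 1 at 0.34. MSH5-SAPCD1, which begins with a meiotic mismatch repair homologue, had 4.99 and 5.08 FPKM and then 6.36 and 5.79, a log2 fold change of 0.23. Its call was lost without siControl replicate 1, siControl replicate 2 or siUPF1 replicate 1, at 0.22, 0.24 and 0.17. After quantile normalization or median centring ATP5MF-PTCD1, SYS1-DBNDD2, DUS4L-BCAP29 and MSH5-SAPCD1 were not called. With the trends with GC content and length removed ATP5MF-PTCD1, SYS1-DBNDD2 and MSH5-SAPCD1 were not called, at 0.77, 0.48 and 0.11.

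Of the 6 falls on depletion the largest was that of COMMD3-BMI1. It joins COMMD3, a gene of the endosomal Commander complex, to BMI1, a Polycomb repressor. It had 2.22 and 2.31 FPKM in siControl and 0.137 and 1.33 in siUPF1. The means were 2.26 ± 0.0639 and 0.734 ± 0.844 (SD, n = 2), a log2 fold change of -1.0 (SE 0.293, limma adjusted p = 0.141). The size rested on siUPF1 replicate 1: the value was -0.49 without it and -1.52 without siUPF1 replicate 2. COMMD3 had 31.3 and 33.7 and then 36.2 and 35.2 FPKM, and BMI1 14.5 and 15.2 and then 15.1 and 11.1, with log2 fold changes of 0.13 and -0.18 that did not pass. HSPE1-MOB4, which begins with a mitochondrial co-chaperonin gene, went from 5.07 and 5.15 to 2.89 and 3.90 FPKM. Its log2 fold change was -0.49 (limma adjusted p = 0.119), or -0.32 without siUPF1 replicate 1, and HSPE1 fell by -0.30 on the log2 scale. INO80B-WBP1, from a chromatin remodeller subunit gene, fell from 1.68 and 1.3 to 0.977 and 0.863 FPKM while both parents rose. The log2 fold changes were -0.37 for the readthrough gene, 0.46 for INO80B and 0.45 for WBP1, and the first was -0.26 and not called without siControl replicate 1. FAM24B-CUZD1, RPS10-NUDT3 and ZHX1-C8orf76 had log2 fold changes of -0.31, -0.28 and -0.25. FAM24B-CUZD1 was not called without siControl replicate 1, at -0.24, or siUPF1 replicate 2, at -0.18. RPS10-NUDT3, which begins with a ribosomal protein gene, was not called without siControl replicate 2, at -0.17, or siUPF1 replicate 2, at -0.22. ZHX1-C8orf76 was not called without siControl replicate 1, at -0.21, siControl replicate 2, at -0.29, or siUPF1 replicate 2, at -0.19, nor with the GC and length trends removed, at -0.21.

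Few genes were called on UPF1 overexpression, but several of the largest log2 fold changes were those of readthrough genes. The fit took 13251 genes, 59 readthrough genes among them, again some only through the group in which they were high. Of these 3 rose and 4 fell, beside 0.619% and 0.807% of all genes, so that 5.08% and 6.78% of the readthrough genes were called. Among the called, UBE2F-SCLY, TPTEP2-CSNK1E and RAB4B-EGLN2 passed the minimum only through the group in which they were high. No readthrough gene passed after adjustment, where 0.00755% of all genes did, which was UPF1 alone. The median log2 fold change was 0.01 over the readthrough genes and -0.01 over all genes, and the median absolute value was 0.156 and 0.0579. An absolute log2 fold change over 1 was seen in 5 genes, of which 3 were the readthrough genes BLOC1S5-TXNDC5, UBE2F-SCLY and COMMD3-BMI1. That is 5.08% of the readthrough genes tested, beside 0.0377% of all genes. BLOC1S5-TXNDC5, whose MYC-UPF1 libraries were far apart, was not called. In the depletion experiment 3 of 18 such genes were readthrough genes, 5.08% of those tested beside 0.133% of all genes. Among them RPL17-C18orf32, with overlapping groups, was not called. Both MYC-UPF1 libraries lay above both MYC libraries in 7 of the 59 and below them in 7, beside 8.88% and 11.8% of all genes. The median SE was 0.151 for readthrough genes and 0.118 for all genes, after limma had drawn variances toward those of genes of like level. Between 0.5 and 10 FPKM, the median absolute difference between 2 libraries of a group was larger for readthrough genes than for other genes. It was 0.227 against 0.138 in MYC and 0.286 against 0.125 in MYC-UPF1, with 0.171 and 0.192 for the parents. How far this spread bears on the shares called was not tested.

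**Figure D3:**
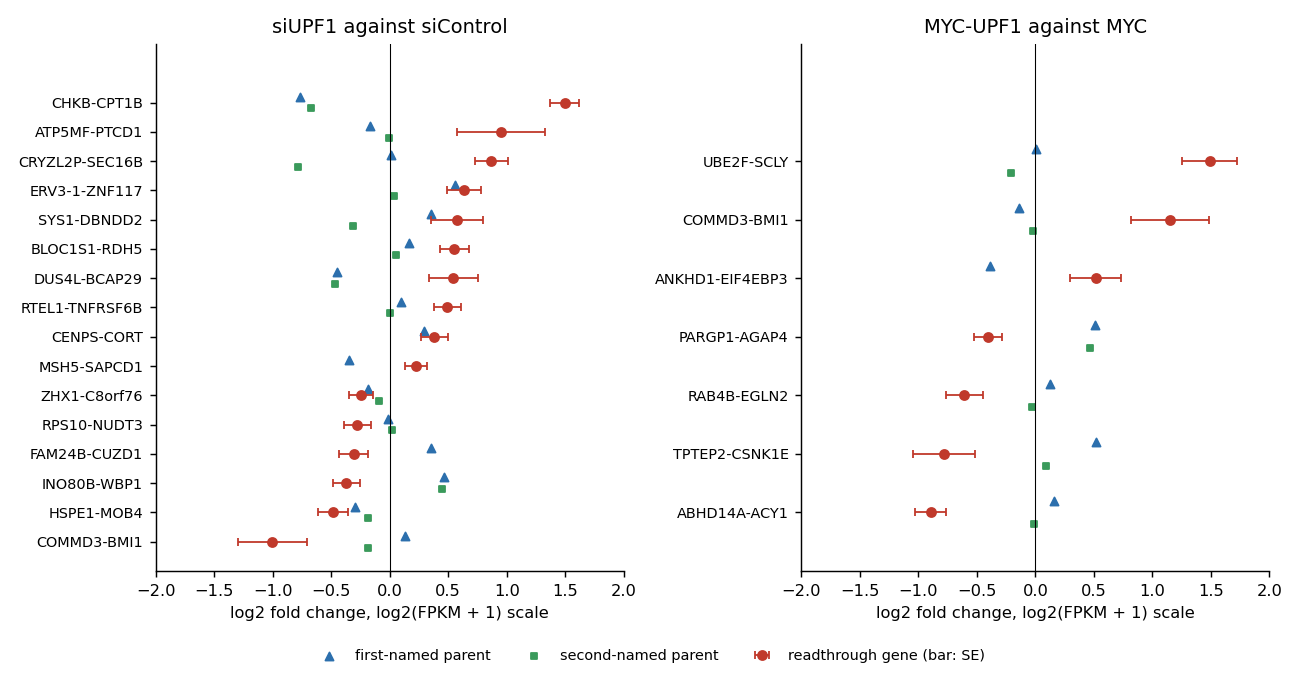
Log2 fold change on the log2(FPKM + 1) scale of each readthrough gene past an unadjusted p of 0.05 (red circles, bars are the SE), with its first-named parent (blue triangles) and second-named parent (green squares) where these were tested. Left, siUPF1 against siControl with 10 rises and 6 falls. Right, MYC-UPF1 against MYC with 3 rises and 4 falls, where no red circle has both parents on its own side of 0.

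UBE2F-SCLY rose most among those called. It joins UBE2F, which conjugates the ubiquitin-like protein NEDD8, to SCLY, the selenocysteine lyase. It had 0.866 and 0.0347 FPKM in MYC and 3.31 and 2.52 in MYC-UPF1. The means were 0.450 ± 0.588 and 2.92 ± 0.555 (SD, n = 2), a log2 fold change of 1.49 (SE 0.233, limma adjusted p = 0.194). UBE2F had 11.1 and 11.8 FPKM and then 11.1 and 12.0, and SCLY 15.9 and 18.7 and then 14.9 and 14.7, with log2 fold changes of 0.01 and -0.21 that did not pass. The sum of the 3 rows moved by 0.00 on the log2 scale. The call was kept under every alternative that tested the gene, which the minimum of 5 FPKM did not. Without 1 library the value was 1.06 to 1.91. With a pseudocount of 0.1 the value was 3.05. In the depletion experiment UBE2F-SCLY had 0.0429 and 0.996 FPKM in siControl and 2.36 and 0.385 in siUPF1, which overlapped, for a change of 0.58 on the log2 scale (SE 0.436, limma adjusted p = 0.454).

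Only 1 readthrough gene, COMMD3-BMI1, was called in both experiments. It had 1.48 and 0.0824 FPKM in MYC and 3.57 and 1.88 in MYC-UPF1, a log2 fold change of 1.15 (SE 0.333, limma adjusted p = 1.00). The value was 0.55 without MYC replicate 2 and 1.74 without MYC replicate 1. COMMD3 and BMI1 had log2 fold changes of -0.14 and -0.02. Its 8 values thus placed 1 library of siUPF1 and 1 of MYC near 0, and the highest value of the other 6 was in MYC-UPF1. ANKHD1-EIF4EBP3, which ends in a gene for a translational repressor, went from 3.96 and 4.39 to 4.63 and 8.67 FPKM. Its log2 fold change was 0.51 (limma adjusted p = 1.00), 0.12 and not called without MYC-UPF1 replicate 2, 0.45 and not called without MYC replicate 1, and 0.90 without MYC-UPF1 replicate 1. ANKHD1 fell by -0.39 on the log2 scale.

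ABHD14A-ACY1 had the largest fall on overexpression. It joins an alpha/beta hydrolase domain gene to the aminoacylase gene ACY1. It had 1.64 and 2.16 FPKM in MYC and 0.432 and 0.678 in MYC-UPF1. The means were 1.90 ± 0.368 and 0.555 ± 0.174 (SD, n = 2), a log2 fold change of -0.90 (SE 0.131, limma adjusted p = 0.194). The call was kept without each library, at -1.03 to -0.77. ABHD14A and ACY1 were even across all 8 libraries, at 10.4 to 13.5 and 36.4 to 39.9 FPKM, with log2 fold changes of 0.16 and -0.02. In the depletion experiment the readthrough gene had 1.03 and 0.643 FPKM in siControl and 0.863 and 2.94 in siUPF1, which overlapped.

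**Figure D4:**
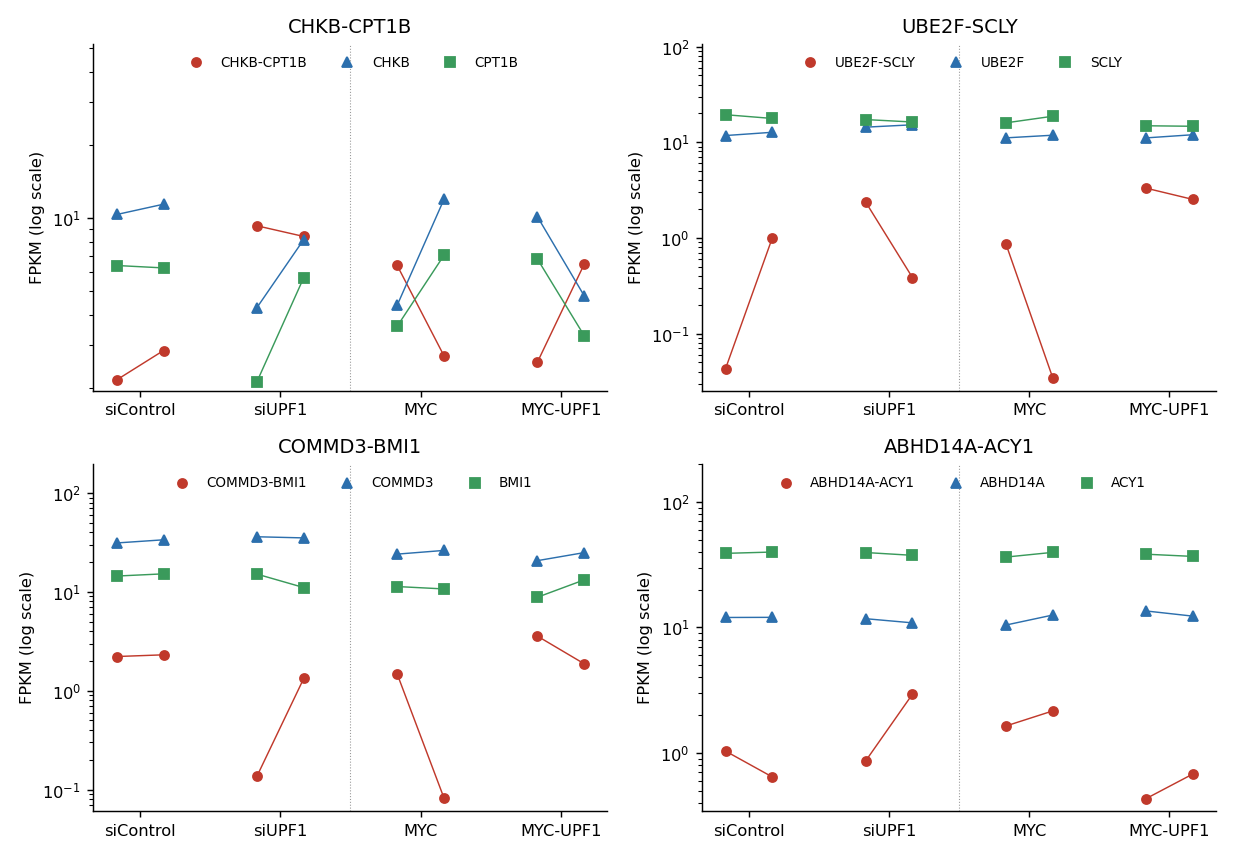
FPKM (log scale) of CHKB-CPT1B, UBE2F-SCLY, COMMD3-BMI1 and ABHD14A-ACY1 (red circles) with the first-named parent (blue triangles) and second-named parent (green squares) in the 8 libraries. Short lines join replicate 1 (left) and replicate 2 (right) of a group, and the dotted line separates the experiments. CHKB-CPT1B lies below both parents in siControl and above both in siUPF1, and crosses them within MYC and within MYC-UPF1, where it ran from 2.56 to 6.47 FPKM. The other 3 lie below both parents in every library.

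The other falls on overexpression were TPTEP2-CSNK1E, RAB4B-EGLN2 and PARGP1-AGAP4. TPTEP2-CSNK1E, from a pseudogene to a casein kinase gene, had 1.89 and 0.388 FPKM in MYC and 0.235 and 0.10 in MYC-UPF1. The change of -0.78 on the log2 scale (limma adjusted p = 1.00) was -0.25 and not called without MYC replicate 1, and -1.31 without MYC replicate 2. With the GC and length trends removed it was -0.75 and not called. RAB4B-EGLN2, from a small GTPase gene to an oxygen-sensing prolyl hydroxylase gene, had 0.847 and 1.62 FPKM and then 0.536 and 0.356. Its value was -0.61 (limma adjusted p = 1.00), or -0.36 without MYC replicate 2, beside 0.12 for RAB4B and -0.03 for EGLN2. PARGP1-AGAP4 had 2.60 and 2.48 FPKM and then 1.75 and 1.60, a log2 fold change of -0.41. Its parents PARGP1 and AGAP4 rose by 0.51 and 0.46, and the assignment of reads among these rows is uncertain.

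Beside the called readthrough genes, the parents moved in no single way. In the depletion experiment both parents were tested for 13 of the 16, and they shared the sign of the readthrough gene in 5, had the opposite sign in 4 and split in 4. In the overexpression experiment both were tested for 6 of the 7, with the same sign in 0, the opposite sign in 3 and a split in 3. The sum of the 3 rows moved less than the readthrough gene: its median absolute log2 difference over the 59 tested was 0.165 on depletion and 0.0492 on overexpression, against 0.247 and 0.156 for the readthrough genes alone. With a median share of 4.66% for the readthrough gene, most of these sums follow mainly the parents. Of the 149 parents tested on depletion 26 rose and 10 fell, and of the 145 tested on overexpression 7 rose and 3 fell. These were 17.4% and 6.71% of the parents on depletion, beside 16% and 5.51% of all genes, and 4.83% and 2.07% on overexpression, beside 0.619% and 0.807%.

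By annotation, 26 of the 35 readthrough genes with a transcript tagged for NMD were tested on depletion. Of these 6 rose and 2 fell, with a median log2 fold change of 0.23. Of the 22 tested without such a transcript 2 rose and 3 fell, with a median of 0.03. Over all genes tested 16% rose and 5.51% fell, with a median of 0.06. On overexpression the medians were 0.03 over 26 and -0.04 over 24 genes. By RefSeq class, the 24 lncRNA genes tested on depletion had 5 rises, 2 falls and a median of 0.12, and the 29 protein coding genes had 5 rises, 4 falls and a median of -0.08. These are descriptions, and the difference between classes was not tested. A tag concerns 1 transcript, and the values concern the whole row.

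Cleavage, polyadenylation and termination factors decide where transcription ends, and 32 of their genes were read as a list. All 32 were tested. On depletion 0 rose and 4 fell, and on overexpression 0 rose and 0 fell by limma at an unadjusted p under 0.05. Over all genes tested the shares were 16% and 5.51% on depletion and 0.619% and 0.807% on overexpression. The 4 were PPP1CB, a phosphatase catalytic subunit, with -0.28, PAPOLA, the poly(A) polymerase, with -0.30, and NUDT21 and CPSF6, subunits of cleavage factor Im, with -0.32 and -0.30. Their limma adjusted p ran from 0.180 to 0.231. The median log2 fold change of the list was 0.02 on depletion and 0.01 on overexpression, beside 0.06 and -0.01 for all genes.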

How the data were processed

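RNA from 8 Huh7 libraries was sequenced by the authors as paired ends. Per the study's methods and the submitters' processing notes, reads were trimmed (Trimmomatic 0.38, FastQC 0.11.7), aligned to hg19 with HISAT 2.1.0 and quantified with StringTie 1.3.4d against the NCBI annotation. The notes also list mm10, a mouse build. The authors deposited FPKM per gene, each value above 0, and no counts were used here, so each value's depth is unknown. StringTie estimates how reads are divided among overlapping rows, which bears on every readthrough gene.

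FPKM were used as deposited. Values of log2(FPKM + 1) were fitted with limma 3.58.1 (R 4.3.3; lmFit, eBayes with trend) for siUPF1 against siControl and MYC-UPF1 against MYC, 4 libraries each, with genes of mean FPKM of at least 0.5. Fold changes on this scale understate those of low genes. P-values were adjusted by Benjamini-Hochberg over all genes tested. The script was tested on simulated data. Alternatives were another pseudocount, no minimum and minimums of 1 and 5 FPKM, 2 scalings, a joint fit, the replicate block, no trend and each library left out. Named genes were the 4 leading readthrough genes, those past the test up to 10 per direction, the 5 highest, their parents, UPF1 and called factors. The members, lists and rules were chosen with earlier results of these data known. Annotation was GENCODE 44 on GRCh37 and, for class, RefSeq. Replicate numbers were not treated as pairs: deviations of same-numbered libraries correlated at -0.129 over 13535 genes and -0.569 over 13251.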

Additional observations from a re-analysis of the deposited data

How the results depend on the processing

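Alternatives that moved a count by over 1.5 times were as follows. On depletion, 10 rises became 6 without an FPKM minimum, after quantile normalization and after median centring, and 3 at a minimum of 5 FPKM (12 genes tested). The 6 falls became 0 at that minimum. The 1 gene past an adjusted p became 0 without a minimum, after either scaling and with the replicate block, and 2 at a minimum of 5. Without 1 library the rises ran from 10 to 20, the falls from 7 to 18 and the adjusted calls from 6 to 34, while over all genes the unadjusted calls ran from 1435 to 5896 (2908 with all libraries) and the adjusted calls from 115 to 4539 (5 with all libraries). On overexpression, 4 falls became 2 at a minimum of 1 FPKM, and the 3 rises and 4 falls became 1 and 0 at a minimum of 5 (9 genes tested). Without 1 library the rises ran from 5 to 11, the falls from 4 to 10 and the adjusted calls from 1 to 9, beside 220 to 778 (189 with all libraries) and 5 to 66 (1 with all libraries) over all genes. A lone library is then assumed to vary like the others, and the causes of these changes were not tested.

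No source ties libraries of the same number to each other, and the numbers were not taken as pairs. Over the 59 readthrough genes tested, deviations of same-numbered libraries correlated at 0.33 on depletion and -0.10 on overexpression. With the replicate block the rises, falls and adjusted calls were 11, 5 and 0 on depletion and 9, 5 and 8 on overexpression. Over all genes the block gave 2586 unadjusted and 0 adjusted calls on depletion, and 170 and 20 on overexpression. Without it these were 2908 and 5, and 189 and 1. The crossed pairing, chosen after seeing the data, gave 14, 7 and 3, and 11, 10 and 4. Calls over all genes were then 3102 unadjusted and 90 adjusted on depletion, and 1227 and 32 on overexpression. Removal of the trends with GC content and length, also chosen after seeing the data, gave 4 rises and 6 falls on depletion. On overexpression it gave 5 and 3. The unadjusted calls over all genes so treated were 2822 on depletion and 384 on overexpression.

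Signs turned for parents or uncalled genes without 1 library. MSH5 ran from -1.01 to 0.31 on depletion, the last without siUPF1 replicate 1. On overexpression CHKB-CPT1B ran from -0.56 to 0.51, the last without MYC-UPF1 replicate 1, and CHKB from -0.69 to 0.58, above 0 without MYC replicate 2 (0.58) or MYC-UPF1 replicate 2 (0.42). With a pseudocount of 0.1 low genes had larger log2 fold changes: -2.02 and 1.92 for COMMD3-BMI1 and CRYZL2P-SEC16B on depletion, and 2.33 and -1.62 for COMMD3-BMI1 and ABHD14A-ACY1 on overexpression. Alternatives chosen after seeing the data are left out of the next count. The unadjusted call was kept in every alternative that tested the gene by 7 of 16 called on depletion and 5 of 7 on overexpression. A called gene under a minimum of 1 or 5 FPKM was not tested at that setting and could not lose its call there. The sign was kept by all 16 and all 7 without any 1 library.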
